A study of Mus musculus with 10 samples.

Results

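Regulatory T cells (Treg) restrain other immune cells partly through molecules they secrete, and 5 genes for such molecules are described here, namely Il10, Ebi3, Il12a, Fgl2 and Areg. They were listed by symbol, and every probe set that the array annotation pairs with 1 of these symbols alone was taken. That gave 5 probe sets for 4 genes, out of 45101 probe sets and 18193 genes with a single symbol. Il10, Ebi3 and Il12a had 1 probe set each and Fgl2 had 2. No probe set carried the symbol Areg in the annotation used here, so Areg was not analysed here.

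IL-10 is a secreted cytokine that binds a receptor made of IL10RA and IL10RB and signals through JAK1, TYK2 and STAT3 to dampen inflammation. EBI3 is the beta subunit that joins p28 in IL-27, and with the p35 chain encoded by Il12a it makes IL-35, a cytokine described in mouse Treg. The same p35 chain pairs with p40, encoded by Il12b, in the inflammatory cytokine IL-12. FGL2, fibrinogen-like protein 2, is a secreted Treg product that binds the inhibitory Fc receptor FCGR2B, and amphiregulin, encoded by Areg, is an EGF family growth factor linked to tissue repair by Treg.

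Expression was measured on 10 Affymetrix whole-genome mouse arrays of CD4+ T cells from the spleen, 2 arrays in each of 5 groups. All cells had been activated through CD3 and CD28, infected with a retrovirus that carries an NGFR marker, and sorted as NGFR+. Treg mock came from GFP+ cells of DEREG mice, in which GFP marks cells with an active Foxp3 promoter, and Tconv mock from their GFP- conventional cells. Both received the empty vector. Tconv Foxp3 was the same kind of GFP- cell labelled as transduced with Foxp3. Scurfy mock and scurfy Foxp3 were GFP+ cells whose descriptions carry the prefix D_S, read here as the DEREG/Scurfy mice of the protocol, whose Foxp3 gene is mutated. Scurfy mock carried the empty vector, as read from the word Mock in its descriptions, and scurfy Foxp3 the Foxp3 vector. The titles call all 3 groups of GFP+ origin epigenetics(+) and both groups of GFP- origin epigenetics(-). The strain field reads DEREG_Balb/c for every array, and neither the age nor the number of mice is stated, so the p-values below measure the spread between arrays, which may be technical.

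Array medians ran from 18.8 to 36.3 intensity units. Values are given as deposited intensities or as log2 of the intensity plus 16. The Foxp3 probe set itself read 18.0 and 18.9 in Tconv Foxp3 against 53.9 and 35.9 in Tconv mock, while scurfy Foxp3 read 948 and 691 against 1188 and 1114 in scurfy mock. The signal was thus not higher where the label gives Foxp3 transduction. The part of the transcript it reads is not stated in the sources used here, so group names follow the labels. Scurfy Foxp3 array 1 matched scurfy mock array 2 best (r = 0.974 across genes, which are not independent replicates), closer than its own replicate at 0.953. All 8 T cell markers with a probe set (Cd3d, Cd3e, Cd3g, Cd247, Cd4, Cd5, Cd2 and Lat) were above the array median on all 10 arrays. In such bulk samples a lower value cannot be told apart from fewer cells making the transcript.

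The 250 bases ahead of the transcription start are shown for Ebi3 and Fgl2, because both differed between the groups labelled Foxp3 transduced in the results that follow. They come from RefSeq on GRCm38.p6, plus strand, at chr17:55952373-55952622 for Ebi3 and chr5:21372423-21372672 for Fgl2. Capitals mark matches, on either strand, to the letters TGANTCA (AP-1), TTCNNNGAA (STAT), TGTTTAC (forkhead) or GGAAA (NFAT core).
Ebi3: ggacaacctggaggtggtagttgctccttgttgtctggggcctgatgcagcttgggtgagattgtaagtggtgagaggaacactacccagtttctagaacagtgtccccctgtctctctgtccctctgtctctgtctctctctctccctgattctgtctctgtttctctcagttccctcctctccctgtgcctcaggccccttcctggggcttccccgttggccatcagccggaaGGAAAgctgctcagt
Fgl2: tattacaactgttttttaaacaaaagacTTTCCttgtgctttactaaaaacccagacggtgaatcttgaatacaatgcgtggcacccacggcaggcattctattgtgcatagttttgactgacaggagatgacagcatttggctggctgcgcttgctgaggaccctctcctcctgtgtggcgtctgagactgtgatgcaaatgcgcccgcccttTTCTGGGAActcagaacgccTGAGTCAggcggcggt
The Ebi3 window held 1 match, to GGAAA. The Fgl2 window held 1 match each to GGAAA, TTCNNNGAA and TGANTCA, and the last of these began 16 bases before the start. None of the matches overlapped. Of 32851 RefSeq promoter windows of this length, 55.6% held GGAAA, 7.02% TTCNNNGAA, 6.75% TGANTCA and 3.17% TGTTTAC. Neither of 2 Il12a windows held any of the 4 motifs. Il10 also differed between the groups labelled Foxp3 transduced, but the promoter set used here held no window for it. A match is a description of letters and no binding was measured here.

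Il10 was bright in 4 of the groups and dim in 1. Its probe set, 1450330_at, read 3933 and 2983 in scurfy Foxp3, 2173 and 1835 in Tconv mock, and 902 and 774 in Treg mock. Tconv Foxp3 had the lowest values, 198 and 45.5, both still above the array median. The scurfy mock arrays disagreed, at 834 and 2735, so that 1 sat among the Treg values and the other above the Tconv mock values. On the log2 scale the group means were 11.75 ± 0.28 in scurfy Foxp3, 10.97 ± 0.17 in Tconv mock, 10.58 ± 1.20 in scurfy mock, 9.73 ± 0.15 in Treg mock and 6.84 ± 1.27 in Tconv Foxp3 (SD, n = 2 each). In this order, scurfy Foxp3 did not overlap Tconv mock and Treg mock did not overlap Tconv Foxp3, whereas scurfy mock overlapped both of its neighbours. Natural Treg were therefore not the group with the highest Il10 signal in these activated cells.

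Ebi3, read by 1449222_at, followed a similar order. The intensities were 808 and 510 for scurfy Foxp3, 478 and 716 for scurfy mock and 384 and 517 for Tconv mock. They were 80.7 and 358 in Treg mock, whose arrays differed 4.43 times, and 47.3 and 9.17 in Tconv Foxp3, of which only the first was above the array median. Log2 means were 9.36 ± 0.46 in scurfy Foxp3, 9.23 ± 0.40 in scurfy mock, 8.85 ± 0.29 in Tconv mock, 7.57 ± 1.38 in Treg mock and 5.32 ± 0.94 in Tconv Foxp3 (SD, n = 2 each). The first 3 groups overlapped their neighbours, while Treg mock lay below Tconv mock and above Tconv Foxp3 without overlap. Across the 10 arrays the log2 values of Ebi3 and Il10 had r = 0.919, a description over arrays that share their groups.

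Il12a (1425454_a_at), whose p35 product is the partner of EBI3 in IL-35, was near background throughout. It passed the array median only on Treg mock array 2 (37.6) and Tconv mock array 1 (52.1), and their replicates read 13.5 and 10.7. All 6 arrays of the other groups lay between 0.954 and 4.74. Log2 means were 5.41 ± 0.95 in Tconv mock and 5.31 ± 0.61 in Treg mock, and 4.30 ± 0.11, 4.19 ± 0.10 and 4.16 ± 0.11 in scurfy Foxp3, Tconv Foxp3 and scurfy mock (SD, n = 2 each). Both arrays of Treg mock, next in this order to scurfy Foxp3, lay above it, and the other neighbours overlapped. Il12a entered the test only through those 2 arrays. With 8 of 10 arrays at or below the array median, no relation to Ebi3 can be read from it.

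Fgl2 read higher in the groups of GFP+ origin than in those of GFP- origin. Its brighter probe set, 1421854_at, read 199.6 and 299.9 in Treg mock, 758 and 112 on the scurfy mock arrays, and 333 and 386 on those of scurfy Foxp3. From GFP- starting cells it read 6.70 and 60.3 in Tconv mock and 0.622 and 7.93 in Tconv Foxp3. Every array of GFP+ origin was therefore above every array of GFP- origin, and only Tconv mock array 2 among the latter exceeded its array median. The share of all genes that part the arrays in this way was not counted, so no weight is put on it. Against Tconv mock, Fgl2 was not called in Treg mock or scurfy mock (limma adjusted p = 0.153 and 0.179). Log2 means were 8.55 ± 0.14 in scurfy Foxp3, 8.30 ± 1.83 in scurfy mock, 8.03 ± 0.39 in Treg mock, 5.38 ± 1.24 in Tconv mock and 4.32 ± 0.37 in Tconv Foxp3 (SD, n = 2 each). Neighbours in this order overlapped except Treg mock and Tconv mock.

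The second Fgl2 probe set, 1421855_at, gave 69.9 and 96.5 in Treg mock, 357 and 68.0 on the scurfy mock arrays, and 107 and 174 on those of scurfy Foxp3. It gave 0.914 and 27.8 in Tconv mock and 0.509 and 1.12 in Tconv Foxp3. The probe sets had r = 0.986 with each other. On the second, scurfy mock had a higher mean than scurfy Foxp3 (7.47 ± 1.52 against 7.26 ± 0.44, SD, n = 2 each) with overlapping arrays, and scurfy Foxp3 did not overlap Treg mock.

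**Figure D1:**
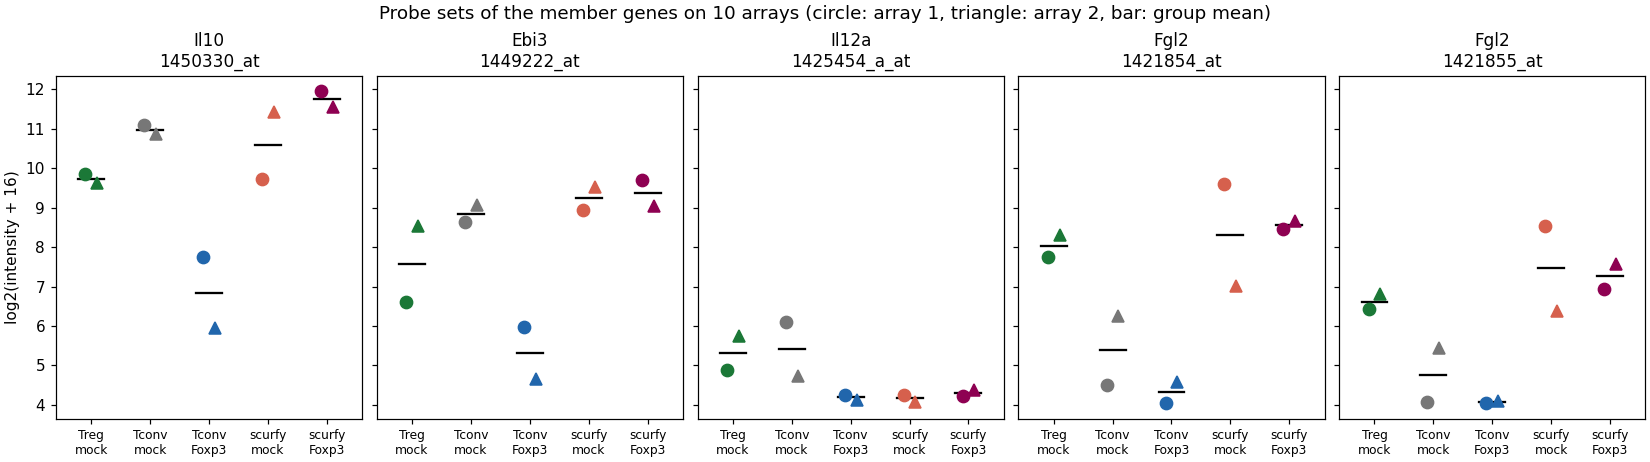
Each panel shows log2(intensity + 16) of 1 probe set on the vertical axis for the 5 groups, with a circle for array 1, a triangle for array 2 and a bar for the mean. Il10 and Ebi3 are lowest in Tconv Foxp3, where Il10 averaged 6.84 and Ebi3 5.32, Il12a lies near the floor except on 2 arrays, and both Fgl2 probe sets are higher in the 3 groups of GFP+ origin.

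The clearest contrast was between the groups labelled Foxp3 transduced, where the starting cells differ and the label is the same. These groups differ in GFP origin and, as the prefix D_S is read here, in the Foxp3 genotype of the mice. The parts of origin and genotype cannot be told apart. Scurfy Foxp3 was higher than Tconv Foxp3 in Il10 by 4.91 log2 units (SE 0.63, 95% interval 3.47 to 6.34), in Fgl2 by 4.23 (SE 0.79, 2.45 to 6.02) and in Ebi3 by 4.04 (SE 0.64, 2.60 to 5.49). The limma adjusted p-values were 0.00778, 0.0357 and 0.018. Il12a differed by 0.11 (SE 0.44, -0.90 to 1.11, adjusted p = 0.935). Thus 3 of the 4 tested members were called at an adjusted p under 0.05, against 2.24% of the 11323 genes tested. The member median was 4.14, beside -0.07 for all genes. The members were chosen with earlier results of these data known, so neither the count nor the median tests them as a set. The groups did not overlap in any of the 3 called genes. The share of all genes without overlap was not counted in this or any other comparison, so that separation adds nothing to the calls.

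The second Fgl2 probe set differed in the same comparison by 3.19 (SE 0.65, adjusted p = 0.0473 when each probe set was tested on its own). Fgl2 was below the array median on both Tconv Foxp3 arrays, so the size of its difference depends on the constant added before the log, at 6.56 with 1 and 2.63 with 64, and was not called with either (adjusted p = 0.0655 and 0.0562). Ebi3 was not called with 1 added (adjusted p = 0.0545). With either scurfy Foxp3 array 2 or Tconv Foxp3 array 2 left out, 0 of the members were called, with Il10 at 5.10 and 4.01, Ebi3 at 4.37 and 3.38 and Fgl2 at 4.13 and 4.49. With scurfy Foxp3 array 1 or Tconv Foxp3 array 1 left out, only Il10 was called. Over 10 such fits the direction held for all 3 genes, with adjusted p from 0.00382 to 0.0796 for Il10, 0.0078 to 0.176 for Ebi3 and 0.00579 to 0.199 for Fgl2.

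**Figure D2:**
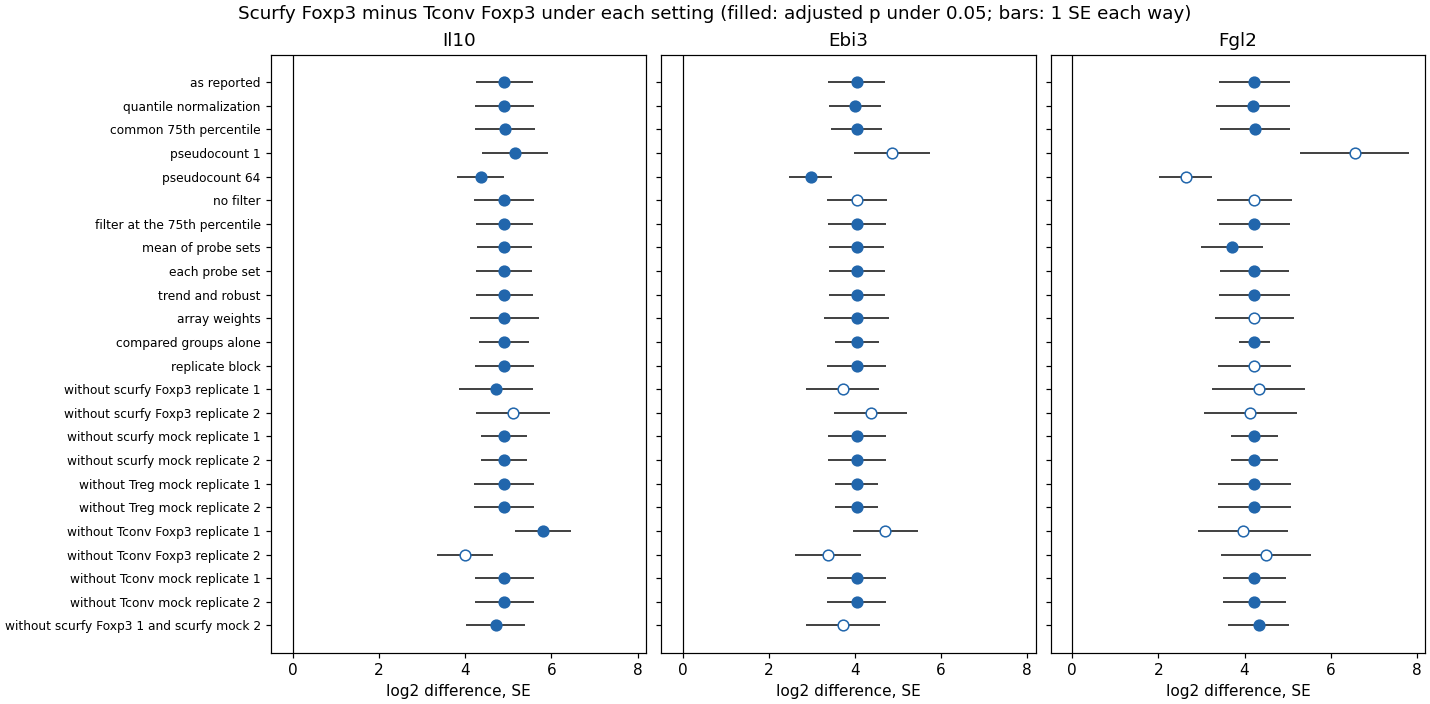
Log2 differences of Il10, Ebi3 and Fgl2 (horizontal axis, with 1 SE each way) in scurfy Foxp3 minus Tconv Foxp3 as reported, under each other setting and without each array, filled where the adjusted p was under 0.05. All points lie above 0, between 2.63 and 6.56, and the open points show where a call was lost.

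Markers of some other cell types were higher in scurfy Foxp3 in this contrast, and those of others were not. Of 10 myeloid markers, 6 were tested, all 6 had positive differences and 2 were called higher in scurfy Foxp3, namely Tyrobp (283.8 and 382.6 against 8.63 and 22.2, log2 difference 3.49, SE 0.45, adjusted p = 0.00778) and Fcer1g (2.18, SE 0.35, adjusted p = 0.018), both signalling adaptors. The summed intensity of the list was 2842 and 3444 in scurfy Foxp3 against 1220 and 1386 in Tconv Foxp3, and 2297 to 2374 in scurfy mock. It was 2765 and 2487 in Tconv mock and 1878 and 2261 in Treg mock, so that Tconv Foxp3 had the lowest sums. Such sums mostly follow the brightest genes of a list. The mean log2 value of the myeloid list was 6.33 and 6.51 in scurfy Foxp3 and 5.24 and 5.31 in Tconv Foxp3. In scurfy mock, Treg mock and Tconv mock it lay between 5.33 and 5.73. By this measure scurfy Foxp3 stood above every other group, and Tconv Foxp3 lay just below the rest. Of the others, Cd68 read 119 and 313 in scurfy Foxp3 against 27.9 and 39.4 in Tconv Foxp3 (2.10, SE 0.50, adjusted p = 0.0739), Itgax 29.7 and 47.3 against 1.09 and 9.47 (1.37, SE 0.38, adjusted p = 0.112), and Csf1r 21.0 and 22.9 against 11.2 and 24.9. Cst3 was also tested and was not called. The 4 that were too dim to be tested were Lyz2, Itgam, Adgre1 and Cd14. Lyz2 was highest in scurfy Foxp3, at 17.6 and 27.8, and the other 3 stayed at or below 21.6 on all arrays. The 8 B cell markers tested had positive differences (median 0.81), none of them called, and summed to 1269 and 4677 against 602.5 and 647.4. The mast cell marker Kit read 81.8 and 94.8 against 0.707 and 1.19 (2.62, SE 0.76, adjusted p = 0.13). Of 5 mast cell and basophil markers with a probe set, Kit alone was tested and the others were too dim. That list summed to 87.2 and 106.4 in scurfy Foxp3. The plasma cell marker Jchain read 103 and 538 against 14.8 and 33.1 (2.72, SE 1.11, adjusted p = 0.261). Neither Kit nor Jchain was called. Of 3 plasma cell markers tested, 2 had positive differences (median 0.026). The plasma cell list summed to 1362 and 2768 in scurfy Foxp3 against 1955 and 1625 in Tconv Foxp3, which overlap. In this contrast 0 of 2 tested NK cell markers and 0 of 2 CD8 T cell markers had positive differences (median -0.58 and -0.295). None of them was called. The 4 NK cell markers summed to 526.5 on scurfy mock array 1, where Fgl2 had its highest value of 758, and to 6.8 to 109.2 on the other 9 arrays. The part of other cells in the Il10, Ebi3 and Fgl2 values was not tested.

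Tconv Foxp3 against Tconv mock asks what the label meant in conventional cells. Il10 differed by -4.13 (SE 0.63, 95% interval -5.57 to -2.70, adjusted p = 0.0794) and Ebi3 by -3.53 (SE 0.64, -4.98 to -2.09, adjusted p = 0.14). Neither gene passed the test. The groups did not overlap in these genes, but the share of all genes without overlap was not counted, so no weight is put on that. Il12a (-1.22, SE 0.44) and Fgl2 (-1.06, SE 0.79) were not called either. limma therefore called 0 of 4 members here, against 0.106% of all genes. Il10 and Ebi3 had an unadjusted p under 0.05, as did 13.9% of all genes. Here and in the counts of unadjusted p below Il12a is left out, because it entered the test only through 1 Treg mock and 1 Tconv mock array. The median of all genes was 0.26 here and 0.01 after quantile normalization, where Il10 stood at -4.25 and Ebi3 at -3.69. In the other comparisons with Tconv mock that scaling moved the median of all genes from 0.19 (Treg mock) and 0.22 (scurfy mock) to -0.05 and -0.02. With array weights both were called (Il10 adjusted p = 0.0151, Ebi3 0.021). Over all genes that setting called 402 higher and 125 lower, beside 6 and 6 as reported, so the gain was not particular to these genes. Il10 alone was called without scurfy mock array 1 (0.0308) or array 2 (0.0335), at an unchanged difference of -4.13.

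In scurfy cells none of the members was called for the same label. Scurfy Foxp3 minus scurfy mock was 1.17 for Il10 (SE 0.63, 95% interval -0.26 to 2.60), 0.25 for Fgl2 (SE 0.79, -1.54 to 2.03), 0.13 for Ebi3 (SE 0.64, -1.31 to 1.58) and 0.13 for Il12a (SE 0.44, -0.87 to 1.14). Each had an adjusted p of 0.999. limma called 0 of 4 members and 0.0353% of all genes, and 0 of the other 3 had an unadjusted p under 0.05, beside 4.24% of all genes. The Il10 difference was 0.32 without scurfy mock array 1 and 2.02 without array 2. The Fgl2 value turned to -1.05 without scurfy mock array 2, and that of Ebi3 to -0.19 without scurfy Foxp3 array 1 and -0.15 without scurfy mock array 1.

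The difference between these label effects was tested directly. Scurfy minus Tconv, it was 5.30 for Il10 (SE 0.90, 95% interval 3.27 to 7.33, adjusted p = 0.214), 3.66 for Ebi3 (SE 0.91, adjusted p = 0.439), 1.36 for Il12a (SE 0.63) and 1.31 for Fgl2 (SE 1.12). limma called 0 members and 0% of all genes, while Il10, Ebi3 and 8.05% of all genes had an unadjusted p under 0.05. Il10 was called without scurfy mock array 2 (6.15, adjusted p = 0.0479), and in no other fit. The Il10 difference between the label effects thus did not pass the correction over all genes, and its scurfy part rests on scurfy mock arrays that disagree.

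Treg mock against Tconv mock asks whether natural Treg carry more of these transcripts after the same activation and empty vector. Fgl2 was higher on both Treg arrays than on either Tconv array, by 2.65 (SE 0.79, 95% interval 0.86 to 4.43, adjusted p = 0.153), and was not called. Il10 differed by -1.24 (SE 0.63, -2.68 to 0.19), Ebi3 by -1.28 (SE 0.64, -2.72 to 0.17) and Il12a by -0.10 (SE 0.44, -1.10 to 0.90). limma called 0 of 4 members against 1.09% of all genes, and Fgl2 had an unadjusted p under 0.05, as did 15.4% of all genes. Fgl2 was called without either scurfy mock array (adjusted p = 0.0452 in each case), where its difference stayed 2.65 with an SE of 0.53. Without Treg mock array 1 the Ebi3 difference shrank to -0.30, and that of Il12a was 0.33.

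Scurfy mock against Tconv mock compares GFP+ cells read as carrying the mutated Foxp3 gene to conventional cells of DEREG mice. Fgl2 was higher by 2.92 (SE 0.79, 95% interval 1.14 to 4.71, adjusted p = 0.179) and Ebi3 by 0.38 (SE 0.64), whereas Il10 was at -0.40 (SE 0.63) and Il12a at -1.25 (SE 0.44, adjusted p = 0.276). limma called 0 of 4 members and 0.574% of all genes, with Fgl2 at an unadjusted p under 0.05, beside 13.8% of all genes. Scurfy mock array 1, with Fgl2 at 758 and Il10 at 834, and array 2, with 112 and 2735, pulled these genes in opposite directions. Without array 2 the Fgl2 difference was 4.22 and called (adjusted p = 0.0181), and without array 1 it was 1.63. The Il10 difference was -1.24 and 0.45 in the same fits.

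Relative to Treg mock, Tconv Foxp3 had negative differences in the members. Fgl2 stood at -3.71 (SE 0.79, adjusted p = 0.0895), Il10 at -2.89 (SE 0.63, adjusted p = 0.0957), Ebi3 at -2.25 (SE 0.64, adjusted p = 0.178) and Il12a at -1.12 (SE 0.44, adjusted p = 0.314). None was called, against 0.671% of all genes, although Fgl2, Il10 and Ebi3 had an unadjusted p under 0.05, beside 13.7% of all genes. Fgl2 was called in a fit of these 2 groups alone (adjusted p = 0.00746), and both Fgl2 and Il10 without either scurfy mock array.

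Both scurfy groups had higher mean Il10 and Ebi3 than Treg mock, without a call. Scurfy Foxp3 minus Treg mock was 2.02 for Il10 (SE 0.63, 95% interval 0.58 to 3.45, adjusted p = 0.377), 1.79 for Ebi3 (SE 0.64, adjusted p = 0.441), 0.52 for Fgl2 (SE 0.79) and -1.02 for Il12a (SE 0.44, adjusted p = 0.555). limma called 0 members and 0.177% of all genes, with Il10, Ebi3 and 8.88% of all genes at an unadjusted p under 0.05. Scurfy mock minus Treg mock was 1.66 for Ebi3 (SE 0.64, adjusted p = 0.525), 0.84 for Il10 (SE 0.63), 0.27 for Fgl2 (SE 0.79) and -1.15 for Il12a (SE 0.44, adjusted p = 0.525). There 0 members and 0.256% of all genes were called, with Ebi3 and 7.94% of all genes at an unadjusted p under 0.05. The scurfy mock difference in Il10 was -0.003 without scurfy mock array 2, whose replicate lies among the Treg values, and 1.69 without array 1. Without Treg mock array 1 the Ebi3 differences were 0.69 for scurfy mock and 0.82 for scurfy Foxp3, and without Treg mock array 2 they were 2.64 and 2.77. The comparisons with Treg mock share its 2 arrays, and those with Tconv mock share that group's arrays, so they are not independent of each other.

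**Figure D3:**
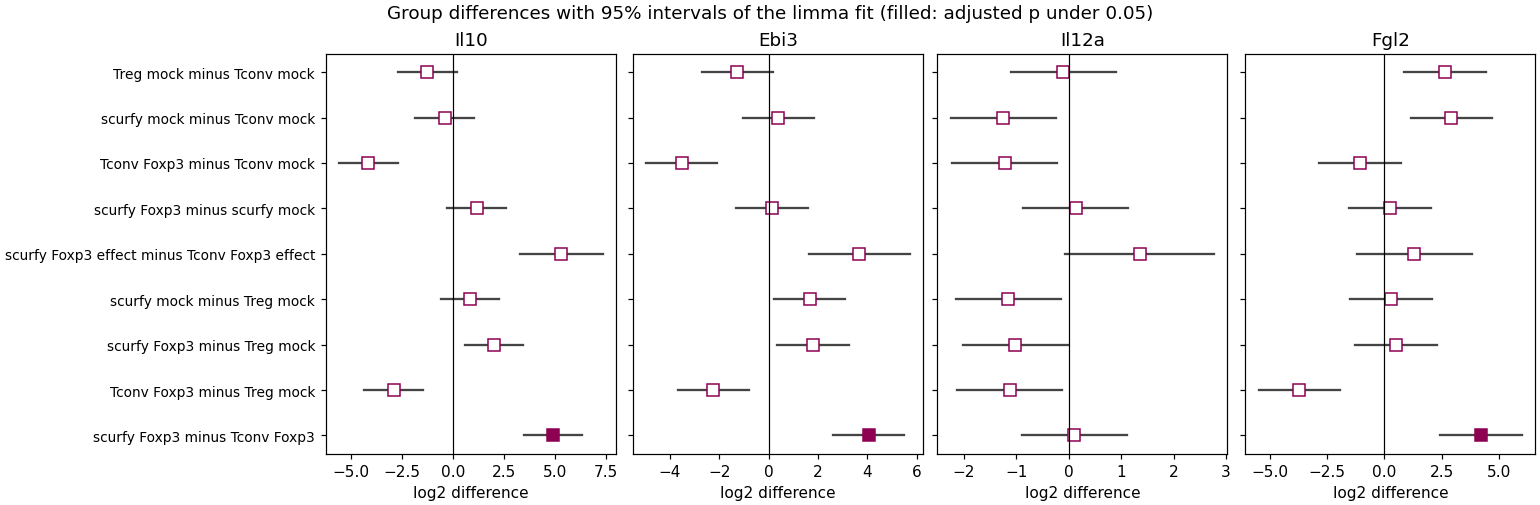
Log2 differences of the 4 tested genes (horizontal axis, scaled for each gene) in the 9 comparisons (vertical axis), with 95% intervals of the fit, filled where the adjusted p was under 0.05. The 3 filled points are Il10 (4.91), Ebi3 (4.04) and Fgl2 (4.23) in scurfy Foxp3 minus Tconv Foxp3.

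Partner subunits and relatives were mostly dim. Of the IL-12 family partners Il12b, Il23a and Il27, the first 2 had a probe set and neither passed the filter on dim genes, with Il12b between 1.22 and 19.1 and Il23a between 0.305 and 17.7. Among the IL-10 relatives Il19, Il20, Il22 and Il24, only Il24 was tested. It read 850 and 4039 in Tconv mock, 1104 and 3015 in scurfy mock, 1073 and 1583 in scurfy Foxp3, 104 and 364 in Tconv Foxp3 and 17.2 and 143 in Treg mock. Like Il10 it was high in Tconv mock and both scurfy groups. Unlike Il10 it had its lowest mean in Treg mock, where it differed from Tconv mock by -4.69 (SE 0.94) and was not called (adjusted p = 0.0603).

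Receptors for these cytokines were also compared between the groups labelled Foxp3 transduced. Of 6 tested receptor genes, 1 was called and 5 were positive (median 0.57). The called gene was Il10ra, the ligand-binding chain of the IL-10 receptor, with 143 and 266 in scurfy Foxp3 against 37.4 and 58.3 in Tconv Foxp3 (1.75, SE 0.36, adjusted p = 0.0444). It was called in only 2 of 10 fits with an array left out. Il10rb (1.09, SE 0.48) and Il27ra, the IL-27 receptor alpha chain (0.84, SE 0.30), were not called. In Treg mock against Tconv mock none of the 6 was called, with the IL-12 receptor chains Il12rb2 at -2.63 (SE 0.53, adjusted p = 0.0603) and Il12rb1 at -1.60 (SE 0.34, adjusted p = 0.068), and the shared chain Il6st at 2.54 (SE 0.49, adjusted p = 0.0526). In no other comparison was a receptor of this list called.

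Among signal carriers downstream of the receptors, of 6 tested genes (Jak1, Jak2, Tyk2, Stat3, Stat4 and Socs3) none was called in any of the 9 comparisons. In scurfy Foxp3 minus Tconv Foxp3, 3 were positive (median 0.04), with Socs3, a feedback inhibitor, at 1.35 (SE 0.41, adjusted p = 0.141) and Stat3 at 0.27 (SE 0.30).

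All 10 transcription factors known to act on Il10 were tested, and 2 were higher in scurfy Foxp3 than in Tconv Foxp3 (8 positive, median 0.93). Maf, which encodes the Il10 activator c-MAF, read 4747 and 6116 in scurfy Foxp3 and 190 and 1142 in Tconv Foxp3 (3.47, SE 0.66, adjusted p = 0.0363). Like Il10, it was lowest in Tconv Foxp3, and all other arrays were at 3427 or above. Rbpj, the DNA-binding partner of Notch, read 2670 and 2700 against 971 and 1025 (1.41, SE 0.25, adjusted p = 0.0292). Prdm1, encoding Blimp-1, was at 2.48 (SE 0.60, adjusted p = 0.0788) and Bhlhe40 at 1.42 (SE 0.72). Maf kept its call in 5 and Rbpj in 6 of 10 fits with an array left out. Within conventional cells Maf differed by -3.12 between Tconv Foxp3 and its mock control (SE 0.66, adjusted p = 0.166), and no factor of the list was called in any comparison other than that of the groups labelled Foxp3 transduced.

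**Figure D4:**
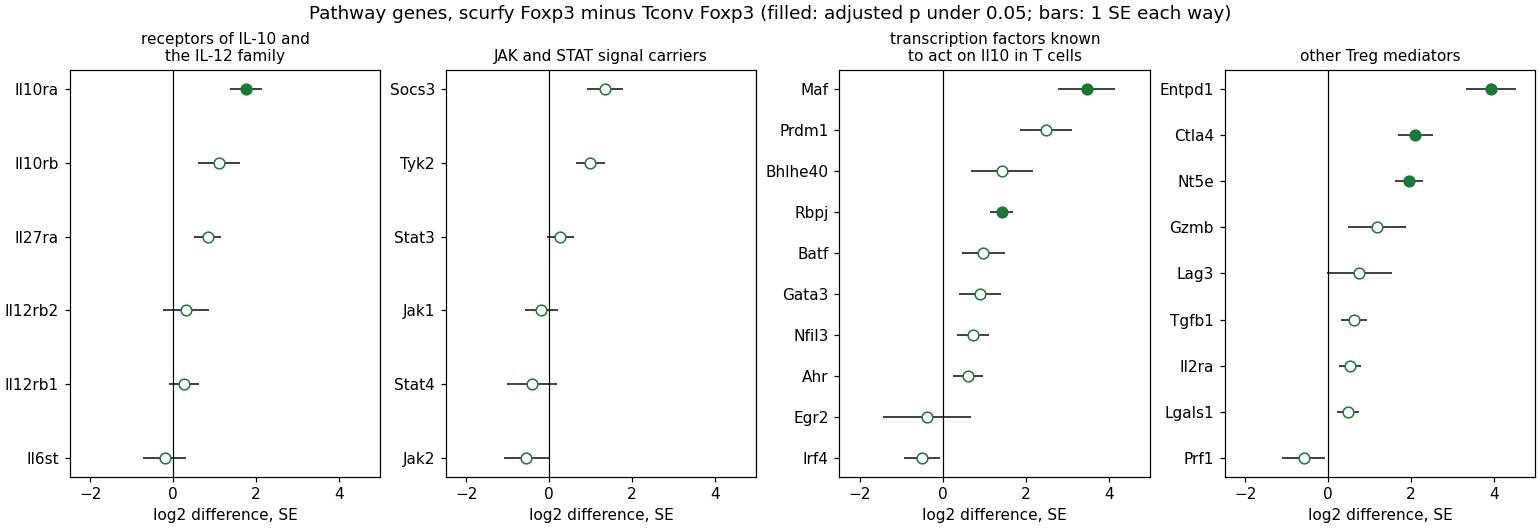
Log2 differences with 1 SE each way (horizontal axis) of the tested genes of 4 lists in scurfy Foxp3 minus Tconv Foxp3, filled where the adjusted p was under 0.05. Filled are Il10ra (1.75), Maf (3.47), Rbpj (1.41), Entpd1 (3.93), Ctla4 (2.10) and Nt5e (1.94).

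For FGL2, its receptor gene Fcgr2b was at 33.7 and 53.7 in scurfy Foxp3 and at most 6.79 on the arrays of the other groups. Of the list of FGL2 relatives and receptors, 2 of 3 were tested. It entered the test through the scurfy Foxp3 arrays alone, where it is high, so its difference from Tconv Foxp3 (1.49, SE 0.28, adjusted p = 0.0366) is given as a description. For the same reason the adjusted p of Fcgr2b, and whether its call held under other settings, carry no weight. B cells and myeloid cells, whose markers were higher in the same group, also express this receptor, and its source was not tested. Of 9 EGF family genes set beside Areg, 4 were tested (Hbegf, Egfr, Adam10 and Adam17) and none was called in any comparison. Of 4 receptors for alarmins, cytokines known upstream of Areg, 3 were tested. Il18r1, the IL-18 receptor chain, was lower in Tconv Foxp3 than in Treg mock (-4.07, SE 0.50, adjusted p = 0.0107) and higher in scurfy Foxp3 than in Tconv Foxp3 (2.36, SE 0.50, adjusted p = 0.0492). With an array left out, the first call held in 7 of 10 fits and the second in 2 of 10.

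Other Treg mediators gave a comparison for the secreted ones. Of 9 tested between the groups labelled Foxp3 transduced, 3 were higher in scurfy Foxp3 (8 positive, median 0.75). These were Entpd1, the ectoenzyme CD39 (3.93, SE 0.58, adjusted p = 0.0137), Ctla4, a co-inhibitory receptor (2.10, SE 0.39, adjusted p = 0.0359), and Nt5e, the ectoenzyme CD73 (1.94, SE 0.31, adjusted p = 0.0189). Ctla4 lost the call with a constant of 1 (adjusted p = 0.072) or without the filter (0.0696). Nt5e lost it with quantile normalization (0.0535) or a constant of 64 (0.0522). With the mean of its probe sets Nt5e fell to 0.88 and was not called (0.124). With an array left out, Entpd1 and Nt5e kept the call in 7 of 10 fits and Ctla4 in 6. Tgfb1, another suppressive cytokine gene, was at 0.62 (SE 0.29, adjusted p = 0.312) and was not called. In Treg mock against Tconv mock 1 of the 9 was called, Nt5e (5.32, SE 0.31, adjusted p = 8.28e-05). It was lower than in Treg mock in Tconv Foxp3 (-4.87), scurfy mock (-4.30) and scurfy Foxp3 (-2.93), each called. With an array left out the scurfy Foxp3 call held in 8 of 10 fits (highest adjusted p = 0.118), and it was lost with a constant of 1 (0.053). The scurfy mock call was lost in a fit of the compared groups alone (0.0973). Among the mediators tested here Nt5e passed the test between natural Treg and conventional cells, and Il10, Ebi3, Il12a and Fgl2 did not.

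Genes with the most similar profile over the 10 arrays were named by Pearson r, as a description without a test. For Il10 they were Mvp (0.946), Lmna (0.945), Olfm1 (0.936), Ehd1 (0.931) and Fam214b (0.925). For Ebi3 they were Slc15a3 (0.974), the chemokine gene Ccl5 (0.961), Rxra (0.959), Ifitm3 (0.953) and Slco3a1 (0.951). For Fgl2 they were Gcnt1 (0.960), Antxr2 (0.946), Klf10 (0.942), Rab33b (0.939) and Pon3 (0.935). Il12a had lower values, led by Reep5 (0.902) and Bsn (0.889). No gene stood in more than 1 of these sets. The arrays share groups and array-wide brightness, which enter every r.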

How the data were processed

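The deposited values are intensities per probe set on a linear scale, which the authors made with Affymetrix Expression Console, per the submitters' processing notes. How probes were summarised and arrays scaled is not given in the sources used here. Labelled cDNA had been amplified with a NuGEN kit, per the labels' protocols. Of 45101 probe sets, 64 were controls, 34945 others had 1 symbol, 932 several and 9160 none.

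Intensities were converted to log2 after adding 16, a scale that understates changes of dim genes. For each gene the probe set of highest mean over the arrays was used. Genes had to exceed the median of the array on 2 or more arrays, which left 11323. limma 3.58.1 in R 4.3.3 was fitted over all 10 arrays by group (lmFit, eBayes; 5 residual degrees of freedom, prior 4.1), with two-sided p-values adjusted by Benjamini-Hochberg over all genes and a call at 0.05. The number of arrays limits precision.

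Members and lists were chosen with earlier results of these data known. Named genes were the members, called genes of each list, up to 4 others with the smallest p, and the 5 most similar genes by r, without clone names. No replicate block was included, because nothing in the labels says that the replicate numbers pair the arrays. As a check, the deviations of same-numbered arrays did not go together (r from -0.17 to 0.19 over 10 pairs of groups). Alternatives were other scalings, added constants, filters, probe set rules and variance options, the compared groups alone, a replicate block, each array left out in turn and, added after seeing the data, scurfy Foxp3 array 1 and scurfy mock array 2 left out together.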

Additional observations from a re-analysis of the deposited data

How the results depend on the processing

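Across 765 member differences recomputed under the alternatives other than the added one (the pair of arrays left out together is given apart), 727 kept direction and side of the threshold, 8 changed sign, 13 gained and 17 lost the call. Between scurfy Foxp3 and Tconv Foxp3, 3 members were called, but 1 with a constant of 1 or without the filter, and 2 with the replicate block, which left Fgl2 at 4.23 (adjusted p = 0.0501). Fgl2 also lost the call there with array weights (adjusted p = 0.0655) and with a constant of 64 (0.0562). The block changed no other member call. Among the list genes called there, Rbpj (adjusted p = 0.0534), Fcgr2b (0.0606), Il10ra (0.0698) and Il18r1 (0.0733) lost the call with the block, and Maf, Entpd1, Ctla4, Nt5e, Tyrobp and Fcer1g did not. With array weights Rbpj (0.0592), Fcgr2b (0.0569), Il10ra (0.0835), Il18r1 (0.104), Maf (0.133) and Ctla4 (0.102) lost it. Leaving out an array gave 0 to 3 calls there, 0 to 2 in Tconv Foxp3 minus Treg mock, and 0 to 1 in the comparisons with Tconv mock and in the difference of label effects. Array weights gave 2 calls in Tconv Foxp3 minus Tconv mock, and the compared groups alone 1 in Tconv Foxp3 minus Treg mock. In Tconv Foxp3 minus Tconv mock, array weights also gave the highest count of calls over all genes, 527.

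Without scurfy Foxp3 array 1 and scurfy mock array 2 together, Fgl2 was at -0.95 in scurfy Foxp3 minus scurfy mock, Il10 at -0.003 in scurfy mock minus Treg mock, and 1 member was called in scurfy mock minus Tconv mock. With single arrays left out, sign changes fell in ranges of -1.05 to 1.54 (Fgl2) and -0.19 to 0.46 (Ebi3) for scurfy Foxp3 minus scurfy mock. For scurfy mock minus Treg mock they were -1.02 to 1.57 (Fgl2) and -0.003 to 1.69 (Il10). Il10 ranged from -1.24 to 0.45 in scurfy mock minus Tconv mock, and Il12a from -0.78 to 0.33 in Treg mock minus Tconv mock. Over all genes, calls between scurfy Foxp3 and Tconv Foxp3 numbered 254, from 106 to 430 under other settings including 134 higher and 31 lower with the block, and 9 to 375 with an array left out. The same quantities (as reported, other settings, an array left out) were 123, 34 to 218 and 17 to 217 for Treg mock minus Tconv mock, 65, 1 to 225 and 5 to 232 for scurfy mock minus Tconv mock, and 12, 3 to 527 and 0 to 19 for Tconv Foxp3 minus Tconv mock. They were 76, 35 to 133 and 6 to 115 for Tconv Foxp3 minus Treg mock, 29, 0 to 59 and 2 to 68 for scurfy mock minus Treg mock, and 20, 0 to 40 and 0 to 42 for scurfy Foxp3 minus Treg mock. They were 4, 0 to 5 and 0 to 50 for scurfy Foxp3 minus scurfy mock and 0, 0 to 1 and 0 to 28 for the difference of label effects. The causes were not tested. Signal over background limits Il12a everywhere and Fgl2 in cells of GFP- origin. The filter at the 75th percentile and 2 of the fits without an array left Il12a untested.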
